A study of Mus musculus with 16 samples.

Results

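The collagen and extracellular matrix genes described here were the genes whose single platform symbol begins with Col, Mmp, Timp, Lama, Lamb, Lamc or Fbln followed by a digit, together with Fn1 and Sparc. By that rule 87 probe sets qualified, which named 60 genes of the 8251 genes that single-gene probe sets named on the array and made up 87 of 12422 tested probe sets. Of these genes, 40 had 1 probe set and 20 had more. The RNA came from CD4+CD8+ thymocytes, the double-positive stage at which T cell precursors are selected, taken from cultured fetal thymus lobes of mice. In BDC2.5 mice most T cells bear 1 transgenic receptor, taken from a CD4 clone that causes diabetes. The NOD strain is prone to autoimmune diabetes, and the B6g7 strain has the C57BL/6 genome with the class II haplotype of NOD. Per strain, 3 arrays held BDC2.5 transgenic cells without peptide, 3 held BDC2.5 transgenic cells exposed to peptide for 16 h and 2 held wild-type cells, 16 arrays in all. The labels leave out the peptide and its dose, the promoter that drives the transgene, the age of the lobes, and whether the wild-type cultures received peptide. They also do not say that the replicates came from separate animals, so that p-values measure the spread between these samples, which may be technical.

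Collagens are trimeric proteins that form the fibrils and sheets of the extracellular matrix, and laminins build basement membranes together with type IV collagen. Matrix metalloproteinases cleave matrix proteins, and the Timp proteins inhibit them. In the thymus, mesenchymal, endothelial and epithelial cells make most of this matrix, macrophages make several of the proteases, and thymocytes bind matrix through integrins as they migrate.

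The promoters of Col1a2, Mmp14 and Fbln2 are shown because the comparisons between groups turn on these genes. Col1a2 encodes the alpha 2 chain of type I collagen, Mmp14 a membrane-bound metalloproteinase and Fbln2 a fibulin, a secreted glycoprotein of elastic fibres and basement membranes. Each sequence holds the 250 bases before the annotated start of the gene on the plus strand, from the RefSeq promoter table of build GRCm38.p6. Col1a2 lies at chr6:4505368-4505617, Mmp14 at chr14:54431348-54431597 and Fbln2 at chr6:91212514-91212763. Capitals mark matches, on either strand, to CCAAT, to the GC box GGGCGG or to TATAAA.
Col1a2: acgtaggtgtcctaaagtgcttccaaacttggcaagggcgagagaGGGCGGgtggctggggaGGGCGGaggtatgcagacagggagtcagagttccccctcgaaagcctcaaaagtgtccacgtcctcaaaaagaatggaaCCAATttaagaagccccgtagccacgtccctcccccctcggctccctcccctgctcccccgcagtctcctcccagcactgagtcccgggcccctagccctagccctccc
Mmp14: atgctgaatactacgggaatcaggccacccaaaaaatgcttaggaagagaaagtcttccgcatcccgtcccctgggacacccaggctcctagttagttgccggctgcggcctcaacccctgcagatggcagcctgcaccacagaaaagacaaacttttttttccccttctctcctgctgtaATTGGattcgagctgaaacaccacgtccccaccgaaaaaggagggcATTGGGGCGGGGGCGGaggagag
Fbln2: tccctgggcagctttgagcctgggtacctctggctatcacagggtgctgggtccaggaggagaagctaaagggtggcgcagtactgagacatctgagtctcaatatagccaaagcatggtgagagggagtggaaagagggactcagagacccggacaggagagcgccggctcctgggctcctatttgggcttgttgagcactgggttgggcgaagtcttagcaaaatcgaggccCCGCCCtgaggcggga

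The Col1a2 window held 1 CCAAT match, 109 bases before the start, and 2 GC boxes, at 205 and 188 bases. The Mmp14 window held 2 CCAAT matches on the minus strand, at 69 and 23 bases, and 2 GC boxes at 19 and 13 bases, and the nearer CCAAT match overlapped the first of these GC boxes. In the Fbln2 window 1 GC box on the minus strand lay 16 bases before the start. No TATAAA match was in any of the 3 windows, which says only that these letters are not there. Over all 32851 promoters of the table, windows of the same length held CCAAT in 33.8%, the GC box in 32.7% and TATAAA in 12.4%. The table had 49 promoters for 42 of the 60 matrix genes, and 30.6% of these held CCAAT, 44.9% the GC box and 18.4% TATAAA. Several promoters of 1 gene can overlap, and a match is a description of letters and not a shown binding site.

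The median intensity of the arrays lay between 54.7 and 59.1. The 4 BDC2.5 arrays numbered 3 in their titles and the 2 wild-type arrays numbered 2 are called the third-number arrays here, and were also left out together as a check. They are the last-numbered array of each group, and the labels do not say that they form a batch. The members were lowest in the third-number array of their group for 44 to 66 of the 87 probe sets, depending on the group. For all tested probe sets that share was 44.7%, 50.6% and 53.3% in BDC2.5/B6g7 without peptide, BDC2.5/B6g7 at 16 h and wild-type B6g7, against 54.0%, 72.4% and 55.2% of the members. In BDC2.5/NOD without peptide, BDC2.5/NOD at 16 h and wild-type NOD it was 40.4%, 47.4% and 62.2%, against 50.6%, 52.9% and 75.9% of the members. All 12 measured markers of double-positive thymocytes lay above the median probe set of the array (intensity 57.4), with Cd8a between 1074 and 5146. Of the markers of other cell types, 5 of 19 for mesenchyme, 3 of 11 for endothelium, 8 of 17 for thymic epithelium and 6 of 16 for myeloid and dendritic cells lay above it.

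Most matrix genes gave dim signals in these cells, and most of the matrix probe sets varied little. Of the 87 probe sets, 24 (27.6%) had a mean above the median probe set of the array, and 29 had a mean below the lower quartile of all probe sets (22.7). The intensity of a probe set depends on its probes as well as on the RNA. Groups are therefore compared on the same probe sets only, and a place above or below the median probe set describes signal, not an amount of RNA. In bulk samples such as these, fewer cells of a type and less RNA per cell cannot be told apart. The ratio of the highest to the lowest of the 16 arrays had a median of 1.42 over the members and 1.56 over all tested probe sets. It exceeded 2 for 6 members (6.90%) and for 28.4% of all probe sets. These 6 were Col1a2, Mmp12 (both of its probe sets), Fbln2, Mmp13 and Mmp14.

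**Figure D1:**
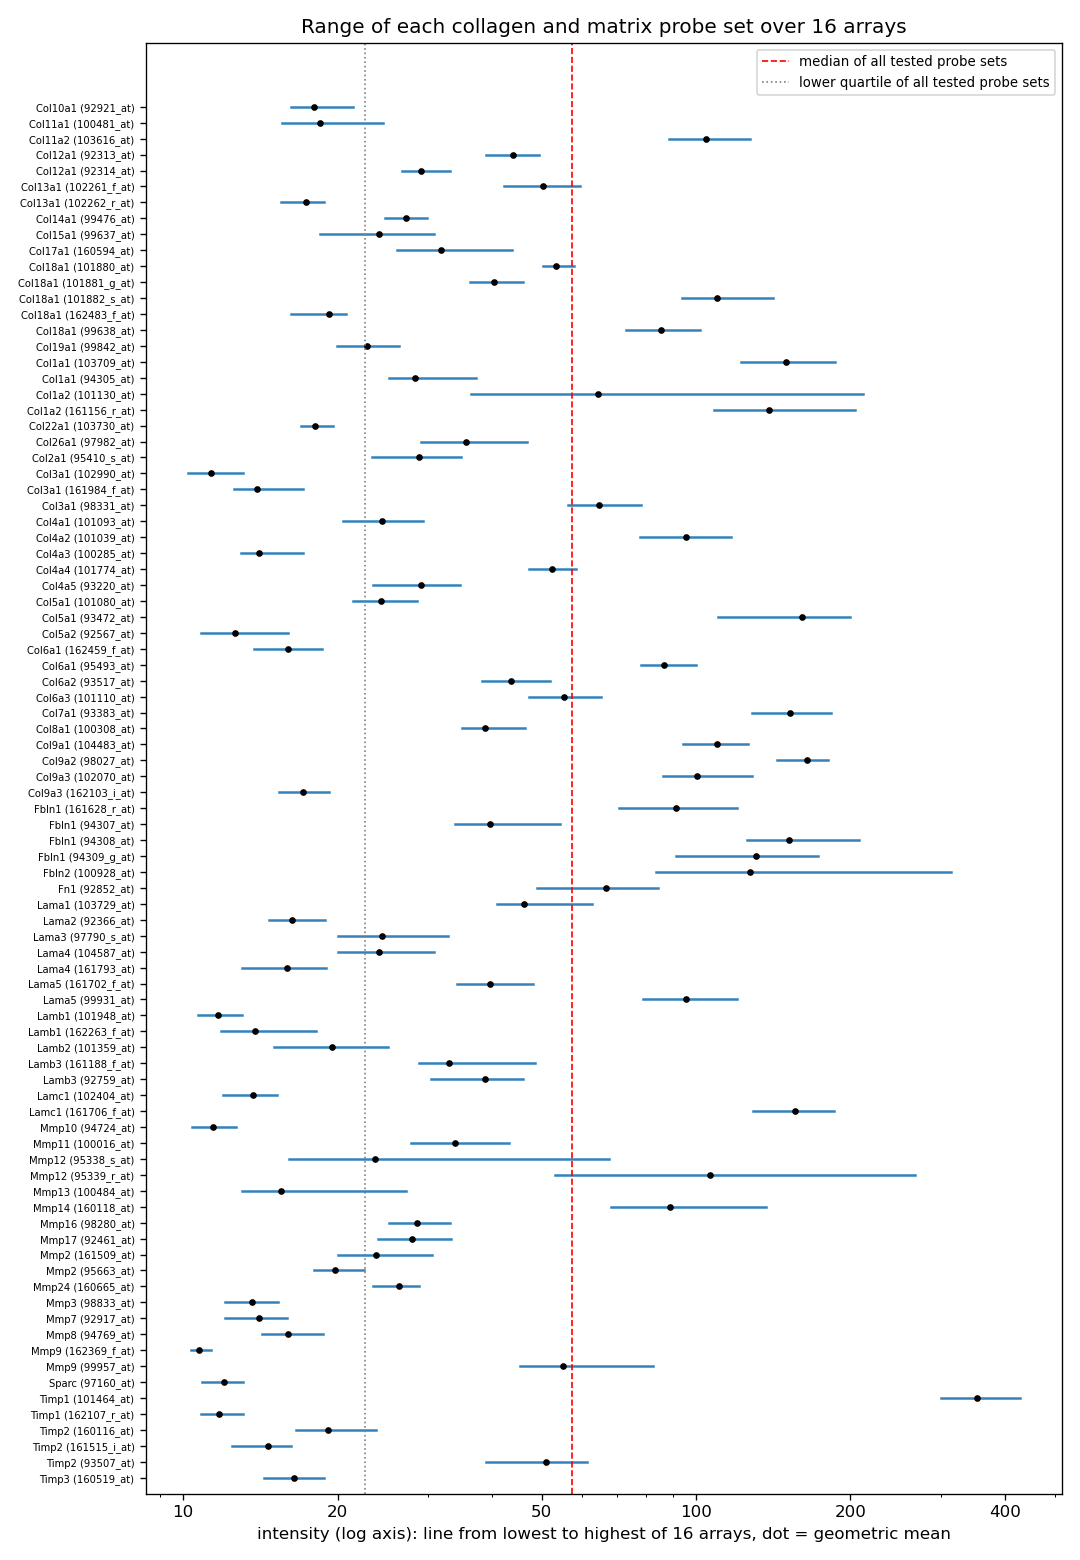
Intensity of each of the 87 collagen and matrix probe sets on a log axis, in alphabetical order: lines run from the lowest to the highest of the 16 arrays and dots are geometric means. The dashed and dotted lines are the median (57.4) and lower quartile (22.7) of all tested probe sets. Most lines are short, and those of Col1a2 (101130_at), Mmp12 and Fbln2 are the longest.

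The collagens made up 44 probe sets of 31 genes, of which 14 probe sets of 12 genes lay above the median probe set. The chains of the fibril-forming collagens (Col1a1, Col1a2, Col2a1, Col3a1, Col5a1, Col5a2, Col11a1 and Col11a2) include Col1a1, whose brighter probe set (103709_at) ranged from 122 to 187. The brightest Col3a1 probe set (98331_at) ranged from 56.3 to 78.2. The basement membrane chains were Col4a1 to Col4a5, of which Col4a2 (101039_at) ranged from 77.9 to 117 and Col4a1 (101093_at) from 20.5 to 29.4, with type XV and XVIII collagens (Col15a1, Col18a1) beside them. The other collagens measured were Col6a1, Col6a2, Col6a3, Col7a1, Col8a1, Col9a1, Col9a2, Col9a3, Col10a1, Col12a1, Col13a1, Col14a1, Col17a1, Col19a1, Col22a1 and Col26a1. Type IX collagen, known from cartilage, gave steady signals, with Col9a2 (98027_at) between 144 and 181.

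The laminin chains Lama1 to Lama5, Lamb1 to Lamb3 and Lamc1 had 14 probe sets, 2 of them above the median probe set. These were 1 probe set each of Lamc1 (161706_f_at, 129 to 185) and Lama5 (99931_at, 78.7 to 120.2). Lama4, a chain of vascular laminins, ranged from 20.03 to 30.9 on its brighter probe set (104587_at), and Lamb1 from 11.8 to 18.1 (162263_f_at). Among the metalloproteinases (Mmp2, Mmp3, Mmp7, Mmp8, Mmp9, Mmp10, Mmp11, Mmp12, Mmp13, Mmp14, Mmp16, Mmp17 and Mmp24), 2 of 16 probe sets lay above it, 1 of Mmp12 and the probe set of Mmp14. The gelatinase Mmp2, which fibroblasts secrete, ranged from 20 to 30.6 (161509_at).

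Of the inhibitors, Timp1 (101464_at) ranged from 301 to 429, Timp2 (93507_at) from 38.9 to 61.2 and Timp3 (160519_at) from 14.4 to 18.8. Timp1, a secreted inhibitor that many cell types induce, was the only one of the 6 Timp probe sets above the median probe set. Its group means were 368 ± 54.0 (SD, n = 3), 343 ± 59.6 (n = 3) and 359 ± 39.4 (n = 2) in BDC2.5/B6g7 without peptide, BDC2.5/B6g7 at 16 h and wild-type B6g7. In NOD the same groups had 374 ± 47.6, 333 ± 23.4 and 349 ± 8.17, and the ranges of any pair of groups overlapped. Its second probe set (162107_r_at) had group means between 11.6 and 11.9. Fibronectin (Fn1), the glycoprotein that links cells to collagen, ranged from 49.0 to 84.2, and Sparc, a collagen-binding protein that mesenchymal cells secrete, from 10.9 to 13.1 across all 16 arrays.

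The 19 measured markers of mesenchyme ranged from bright to dim. Above the median probe set of the array lay Thy1, which thymocytes also make, Eng (130 to 408), the growth factor receptor Pdgfra (144 to 179), Bgn (63.9 to 89.3) and Des (62.0 to 84.8), and the other 14 lay below it. Among those 14, decorin (Dcn) lay between 13.9 and 18.5 in 15 arrays and at 33.4 in array 3 of BDC2.5/B6g7 at 16 h. Acta2, Prrx1, Postn, Fap and Pdpn were at 18.1 or below in every array. Of the 17 markers of thymic epithelium, Ctsl, Cdh1, Krt8, Enpep, Cldn4, Aire, Trp63 and Krt5 lay above the median probe set, with Krt8 between 79.0 and 108 and Aire between 60.6 and 89.6. The other 9 lay below it, among them Foxn1 (27.2 to 35.0) and Epcam (14.5 to 18.1). No probe set was listed at 0, and the sources used here give no detection call, so these levels were not separated from background.

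The first comparison asked whether matrix genes differ between the strains in BDC2.5 thymocytes without peptide, as NOD minus B6g7. One collagen probe set differed. Col1a2 (101130_at) had intensities of 40.1, 48.4 and 36.5 in BDC2.5/B6g7 and of 97.1, 212 and 102 in BDC2.5/NOD. Every NOD array lay above every B6g7 array, and NOD array 2 was the highest of the whole series. The difference was 1.63 ± 0.30 (log2, SE of the limma fit), or 3.095-fold, with a Benjamini-Hochberg adjusted p of 0.0442. It was the only 1 of 87 members called at an adjusted p under 0.05, beside 0.266% of all probe sets.

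At 16 h of peptide the same probe set of Col1a2 again stood apart. Its intensities were 53.6, 37.6 and 38.6 in BDC2.5/B6g7 and 126, 189 and 85.0 in BDC2.5/NOD, with no overlap. The difference was 1.56 ± 0.30 (log2), or 2.96-fold (limma, adjusted p = 0.0374), and Col1a2 was again the only 1 of 87 members called, beside 0.491% of all probe sets. Both calls depended on single arrays. Without peptide the adjusted p rose to between 0.0557 and 0.224 when any 1 of the 6 arrays was left out, with differences of 1.27 to 1.83. At 16 h it lay between 0.0293 and 0.190, and only leaving out NOD array 3 kept the call. Without the third-number arrays the differences were 1.70 and 1.78, with adjusted p of 0.103 and 0.0793.

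Averaged over both peptide states, a comparison added after these values were seen, Col1a2 was 1.60 ± 0.21 (log2) higher in BDC2.5/NOD, or 3.03-fold (limma, adjusted p = 0.00136). It was the only 1 of 87 members called there too, beside 0.958% of all probe sets. This averaged difference was called in all 21 alternatives run, with adjusted p between 0.000170 and 0.00600, 12 of them with 1 array left out. The fit took the arrays of both peptide states as independent. Same-numbered arrays of the 2 states deviated alike, with correlations of 0.608, 0.581 and 0.793 in NOD and 0.639, 0.249 and 0.6 in B6g7. The SE and p of this and the other averaged differences may therefore be too small. The 6 BDC2.5/NOD arrays ranged from 85.0 to 212 and the 6 BDC2.5/B6g7 arrays from 36.5 to 53.6.

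In wild-type cells Col1a2 (101130_at) did not show this difference. Its arrays read 38.3 and 44.3 for B6g7, and 43.7 and 49.0 for NOD, which overlapped, and the strain difference was 0.17 ± 0.37 (limma, adjusted p = 0.9998). Both wild-type NOD arrays thus lay within the range of the BDC2.5/B6g7 arrays and below every BDC2.5/NOD array. The strain difference in BDC2.5 cells exceeded that in wild-type cells by 1.46 ± 0.48 without peptide (unadjusted p = 0.00901) and by 1.40 ± 0.48 at 16 h (unadjusted p = 0.0118). Neither passed adjustment over all probe sets in the limma fit (adjusted p = 0.99997 and 0.9999, 0 of 12422 probe sets called), and both were computed after the values were seen. At an unadjusted p under 0.05, 1 of 87 members was higher without peptide and 2 at 16 h, beside 0.7% and 0.958% of all probe sets. Peptide did not move this Col1a2 probe set by more than its error, with 0.05 ± 0.30 in B6g7 and -0.02 ± 0.30 in NOD.

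The other Col1a2 probe set (161156_r_at) gave no such pattern. Its intensities were 147, 134 and 128 in BDC2.5/B6g7 without peptide and 153, 147 and 135 at 16 h, and 132 and 164 in wild-type B6g7. In BDC2.5/NOD they were 204, 119 and 140 without peptide and 139, 109 and 114 at 16 h, and in wild-type NOD 138 and 145. The strain difference was 0.14 ± 0.19 without peptide and -0.28 ± 0.19 at 16 h, with overlapping arrays at both (limma, adjusted p = 0.9999 and 0.9997). This probe set was the brighter of the pair, so a count with only the brightest probe set of each gene called 0 of 60 members in all 9 comparisons of the design. The partner chain of type I collagen, Col1a1 (103709_at), had 158, 162 and 129 in BDC2.5/B6g7 without peptide and 186.5, 139 and 138 in BDC2.5/NOD, which overlapped.

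**Figure D2:**
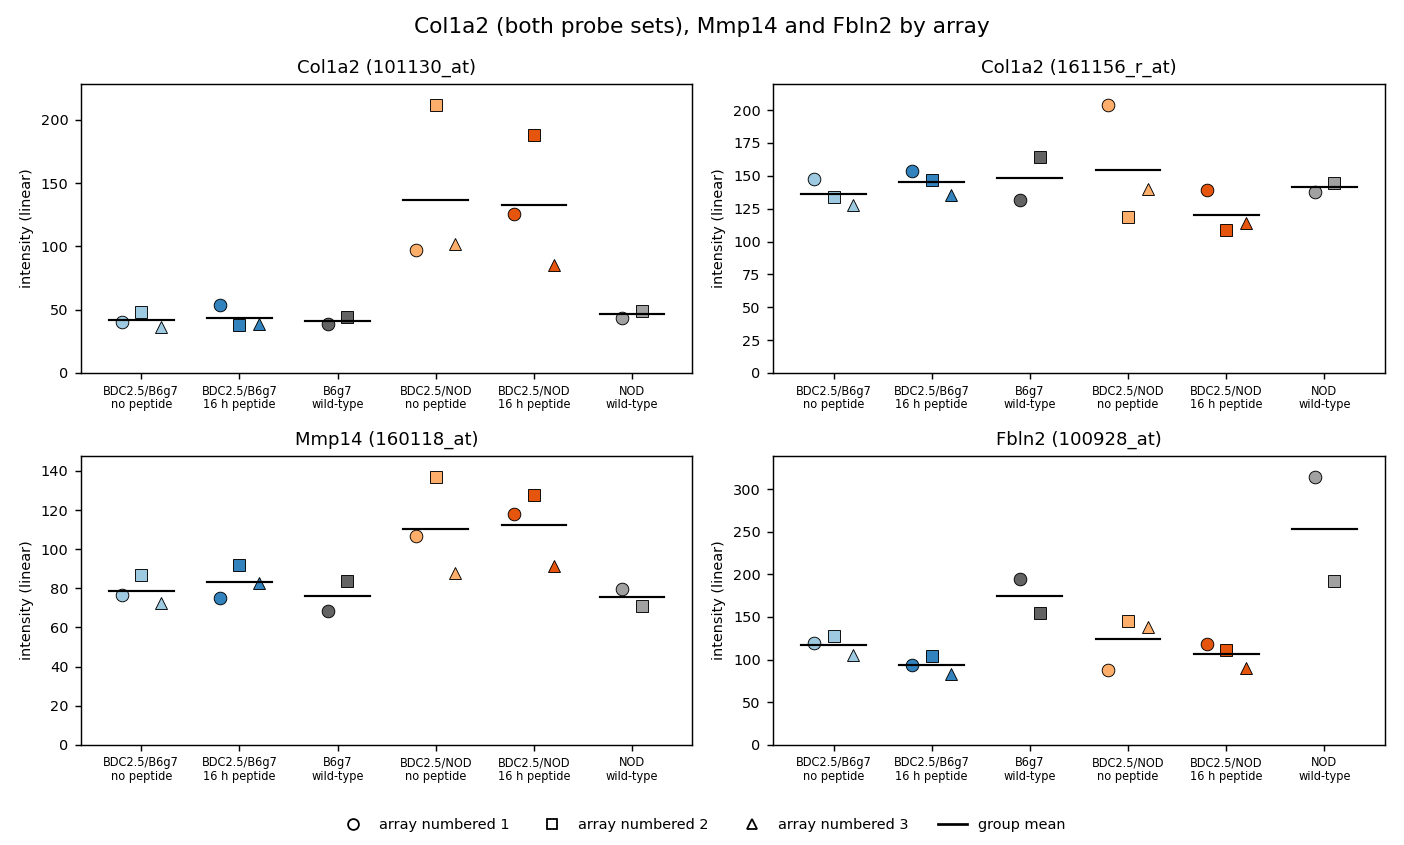
Linear intensity of Col1a2 (both probe sets), Mmp14 and Fbln2 in each of the 16 arrays by group: symbols give the array number and bars the group mean. For Col1a2 (101130_at) the 6 BDC2.5/NOD arrays lie between 85.0 and 212 and the other 10 between 36.5 and 53.6, which the second probe set does not show.

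Mmp14, the membrane-bound protease that cleaves fibrillar collagen and activates Mmp2, had the next largest strain difference above 0 in BDC2.5 cells. Without peptide Mmp14 read 76.4, 86.6 and 72.7 in BDC2.5/B6g7 against 107, 137 and 87.7 in BDC2.5/NOD, a difference of 0.47 ± 0.18 with no overlap (limma, unadjusted p = 0.0204, adjusted p = 0.9999). At 16 h it read 75.2, 92.1 and 82.8 against 118, 128 and 91.2, and here NOD array 3 lay below B6g7 array 2 (0.42 ± 0.18, adjusted p = 0.796). Wild-type arrays overlapped, at 68.3 and 83.5 for B6g7 and at 79.9 and 71.0 for NOD. As for Col1a2 (101130_at), NOD array 2 was the highest and NOD array 3 the lowest of the 3 NOD arrays of Mmp14 at 16 h. Averaged over both peptide states the Mmp14 difference was 0.45 ± 0.13, which did not pass (limma, adjusted p = 0.188). With the replicate number as a block it did (adjusted p = 0.0256), and 2 members rather than 1 were then called.

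Of the other members, Mmp12 (95339_r_at) lay lower in NOD by a larger amount than the Mmp14 difference, with -0.61 ± 0.40 without peptide and -0.65 ± 0.40 at 16 h, but neither passed the test (limma, adjusted p = 0.9999 and 0.9997). Without peptide its arrays overlapped, and B6g7 array 2 read 268 against 89.9 and 92.7 in the other B6g7 arrays. The other Mmp12 probe set (95338_s_at) was not lower in NOD there, with 17.6, 30.2 and 23.2 in BDC2.5/B6g7 and 22.3, 16.7 and 50.3 in BDC2.5/NOD. At an unadjusted p under 0.05, 5 of 87 members were higher in NOD and 0 lower without peptide, beside 1.86% and 1.59% of all probe sets. With the replicate number as a block there were 9 higher and 0 lower, beside 3.68% and 2.85%. Without the block these were, besides Col1a2 and Mmp14, Fbln1 (94307_at, 0.34 ± 0.12), Col15a1 (0.26 ± 0.11) and Lama1 (0.25 ± 0.12), with adjusted p of 0.988 or above. Fbln1, a fibulin of elastic tissue, had brighter probe sets, which all overlapped between the strains. On 94307_at it read 36.4, 36.2 and 36.8 in BDC2.5/B6g7 and 45.0, 40.2 and 54.2 in BDC2.5/NOD, with no overlap. Lama1, an alpha chain of early basement membranes, read 47.2, 42.2 and 44.0 against 62.6, 49.5 and 47.6, again with no overlap and with NOD array 1 the highest. In all, 5 members lay higher without overlap and 1 lower, beside 3.24% and 2.37% of all probe sets.

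Over the whole list the differences were small. Without peptide 69 of 87 members (79.3%) had a log2 difference above 0, with a median of 0.05, while 60.4% of all probe sets lay above 0 with a median of 0.03. When arrays were left out singly, the median of the members ranged from -0.01 to 0.10 without peptide and from -0.06 to 0.06 at 16 h, so that it did not keep its sign. Whether the members moved beyond the array as a whole was not tested. The laminins had 13 of 14 above 0 (median 0.11) and the collagens 34 of 44 (median 0.04). The median laminin intensity was 31.9, 22.6 and 24.8 in the BDC2.5/NOD arrays without peptide. It was 27.0, 23.9 and 20.5 in those of BDC2.5/B6g7, which overlapped, and NOD array 1 was the highest. At 16 h, 44 of 87 members lay above 0 (51.8% of all probe sets), with a median under 0.01, and for the laminins 5 of 14. At 16 h 2 members passed an unadjusted p under 0.05 as higher and 0 as lower, beside 2.75% and 2.93% of all probe sets, and these 2 were Col1a2 and Mmp14. With the replicate number as a block there were 5 higher and 1 lower, beside 5.52% and 4.91%. Without overlap, 5 members were higher and 3 lower, beside 6.45% and 5.39%.

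**Figure D3:**
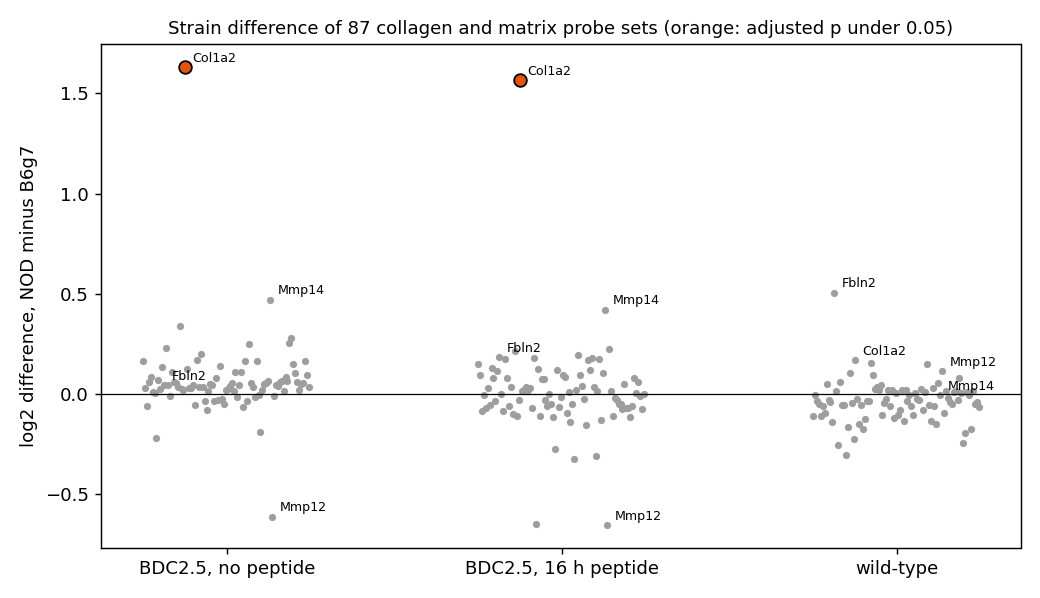
Strain difference (log2, NOD minus B6g7) of the 87 collagen and matrix probe sets in BDC2.5 cells without peptide, in BDC2.5 cells at 16 h and in wild-type cells; horizontal position within a column has no meaning. The 2 orange points are Col1a2 (101130_at) at 1.63 and 1.56, the only ones with an adjusted p under 0.05; in wild-type cells that probe set lies at 0.17.

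In wild-type cells the strains differed at 0 of 87 members (limma, adjusted p under 0.05), beside 0.0886% of all probe sets, and 0 members had an unadjusted p under 0.05, beside 0.805% of all probe sets higher and 1.28% lower. With the replicate number as a block, 0 members were higher and 1 lower at that threshold, beside 1.55% and 2.42% of all probe sets, and 0 were called. In 31 of 87 members the difference was above 0 (41.3% of all probe sets), with a median of -0.03. Without the block, the smallest p belonged to Col10a1, a collagen of growth cartilage, and Col2a1, the main collagen of cartilage. Col10a1 read 21.4 and 18.7 in B6g7 against 16.2 and 18.1 in NOD, and Col2a1 34.8 and 31.5 against 26.5 and 27.2. Both lay lower in NOD without overlap (-0.22 ± 0.12 and -0.30 ± 0.16). The Col10a1 difference ranged from -0.32 to -0.13 when arrays were left out singly. With 2 arrays against 2, non-overlap was common. It was found for 3 members higher and 11 lower in NOD, beside 6.55% and 14.3% of all probe sets.

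The transgene comparison set BDC2.5 cells without peptide against wild-type cells of the same strain, so that the BDC2.5 arrays entering it are those of the strain comparison. No member was called in B6g7 (0 of 87, beside 0.0805% of all probe sets) or in NOD (0 of 87, beside 0.0564%). Fbln2 had the largest difference below 0 in both strains. Its intensities were 119, 127 and 106 in BDC2.5/B6g7 against 194 and 155 in wild-type B6g7, and 87.6, 145 and 139 in BDC2.5/NOD against 314 and 193 in wild-type NOD. Every BDC2.5 array lay below both wild-type arrays of its strain. The Fbln2 differences were -0.57 ± 0.25 in B6g7 (unadjusted p = 0.0416) and -1.03 ± 0.25 in NOD (unadjusted p = 0.00118), and neither passed adjustment in limma (adjusted p = 0.9999 and 0.9994). When arrays were left out singly, the Fbln2 difference ranged from -0.73 to -0.40 in B6g7 and from -1.38 to -0.67 in NOD. At 16 h of peptide the BDC2.5 arrays of Fbln2 read 93.3, 104 and 83.6 in B6g7 and 119, 112 and 90.1 in NOD, also below the wild-type arrays.

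Col15a1, the chain of a basement membrane collagen, had the same order at lower intensity. It read 21.5, 23.7 and 18.9 in BDC2.5/B6g7 against 27.6 and 29.0 in wild-type B6g7, and 27.1, 25 and 24.3 in BDC2.5/NOD against 30.9 and 29.0 in wild-type NOD. The Col15a1 differences were -0.41 ± 0.12 (unadjusted p = 0.00495) and -0.23 ± 0.12, without overlap in either strain and with limma adjusted p of 0.9999 and 0.9994. Col1a2 (101130_at) was 1.47 ± 0.34 above wild-type in NOD without overlap (limma, adjusted p = 0.848), and 0.01 ± 0.34 in B6g7. Mmp14 read 0.53 ± 0.20 above wild-type in NOD and 0.05 ± 0.20 in B6g7 (limma, adjusted p = 0.9994 and 0.9999).

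At an unadjusted p under 0.05, 0 members were higher and 2 lower in B6g7, beside 0.523% and 0.966% of all probe sets, and 3 were higher and 1 lower in NOD, beside 1.28% and 0.716%. Over all members the transgene difference in B6g7 had a median of -0.01, with 38 of 87 above 0 (44.2% of all probe sets, median -0.02). In NOD the median was 0.08, with 68 of 87 (78.2%) above 0 (61.0% of all probe sets, median 0.04). This NOD median lay between 0.01 and 0.13 when arrays were left out singly. Of the laminins 13 of 14 lay above 0 in NOD (median 0.14), and BDC2.5/NOD array 1, with the highest median laminin intensity, enters here too. Without overlap, 5 members were higher and 5 lower in B6g7, beside 4.15% and 6.91% of all probe sets, and 12 were higher and 3 lower in NOD, beside 6.19% and 2.52%. The 12 were probe sets of 4 laminins (Lama1, Lama4, Lama5 and Lamb3), 5 collagens (Col1a2, Col4a3, Col9a3, Col12a1 and Col13a1), Mmp2, Mmp14 and Fbln1. Col13a1 was higher on its dimmer probe set (102262_r_at), with 18.8, 17.6 and 18.0 against 15.5 and 16.6 in wild-type NOD. Its brighter probe set (102261_f_at) was lower without overlap, with 44.4, 42.1 and 50.6 against 56.7 and 51.1. The brightest probe sets of Lama4, Lama5, Col1a2, Col12a1, Mmp2 and Fbln1 overlapped.

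The peptide comparison asked whether matrix transcripts moved within 16 h of peptide, the stimulus applied here to study negative selection. No member was called in B6g7 (0 of 87, beside 0.00805% of all probe sets), in NOD (0 of 87, with 0.00% of all called), for the mean of both (0 of 87, beside 0.0242%) or for the difference between the strains (0 of 87, with 0.00%). At an unadjusted p under 0.05, 0 members were higher and 0 lower in B6g7, beside 2.26% and 1.14% of all probe sets, and 0 were higher and 1 lower in NOD, beside 0.636% and 1.03%. For the mean 0 were higher and 2 lower, beside 1.87% and 1.71%, and for the difference 0 each way, beside 0.475% and 0.708%. The replicate number was also fitted as a block over all 16 arrays. Deviations of same-numbered arrays from their group means correlated positively among the 12 BDC2.5 arrays. For arrays numbered 2 the correlations were only 0.165 to 0.249 where a B6g7 array was involved. Wild-type and BDC2.5 arrays numbered 2 did not deviate alike, yet they share a block in this fit. With the block more members passed the unadjusted threshold and 0 were called. In B6g7 0 were then higher and 2 lower, beside 3.69% and 3.37% of all probe sets, and in NOD 2 were higher and 10 lower, beside 1.78% and 2.84%. For the mean 1 was higher and 6 lower, beside 3.31% and 3.91%, and for the difference 1 and 3, beside 1.7% and 1.94%. Without the block, in B6g7 the smallest p belonged to Timp2 (160116_at), with 19.99, 20.1 and 19.9 without peptide and 18.2, 17.5 and 16.6 at 16 h (-0.20 ± 0.10). Sparc came next, with 12.8, 11.9 and 12.7 against 11.7, 10.9 and 11.6 (-0.13 ± 0.07). Both lay lower at 16 h without overlap, at intensities below the lower quartile of the array. The brightest Timp2 probe set (93507_at) overlapped in B6g7, with 56.7, 49.8 and 45.8 without peptide and 60.2, 53.3 and 38.9 at 16 h.

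In NOD the smallest p belonged to another Timp2 probe set (161515_i_at, -0.19 ± 0.09), with 16.0, 14.1 and 16.1 without peptide and 14.3, 12.5 and 13.6 at 16 h, which overlapped. Lama1 read 62.6, 49.5 and 47.6 against 43.0, 48.1 and 43.6 (-0.24 ± 0.12), also with overlap, and its difference ranged from -0.31 to -0.11 when arrays were left out singly. For the mean response these were Mmp10, a stromelysin (-0.11 ± 0.04), and Fbln1 (94309_g_at, -0.31 ± 0.13), with limma adjusted p of 0.998 for both. Fbln1 read 173, 147 and 131 without peptide and 154, 132 and 91.6 at 16 h in B6g7, which overlapped. In NOD it read 148, 160 and 142 against 116, 138 and 104, which did not. Mmp10 stayed between 10.4 and 12.7 in every array.

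The peptide responses differed most between the strains for Col13a1 (102261_f_at, 0.35 ± 0.18), a membrane-anchored collagen, and Lamb3 (161188_f_at, -0.35 ± 0.19), a chain of epithelial laminin, with limma adjusted p of 0.9996 for both. Col13a1 read 51.1, 54.5 and 53.5 without peptide and 45.4, 50.4 and 47.6 at 16 h in B6g7, and 44.4, 42.1 and 50.6 against 53.0, 46.3 and 58.0 in NOD. Lamb3 was at 48.6 in NOD array 1 without peptide and between 28.9 and 37.1 in the other 15 arrays, and its difference ranged from -0.44 to -0.16 when arrays were left out singly. Over all members the median response was -0.01 in B6g7 and -0.06 in NOD (all probe sets -0.01 and -0.02), with 37 and 25 of 87 above 0 (48.0% and 42.0% of all probe sets). Without overlap, 0 members were higher and 5 lower in B6g7, beside 3.48% and 3.03% of all probe sets, and 2 were higher and 5 lower in NOD, beside 2.33% and 3.20%. The 2 in NOD were Col11a2 (103616_at, 0.25) and Col3a1 (98331_at, 0.17).

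Several metalloproteinases were high in single arrays rather than in groups. Mmp12, the macrophage elastase, read 17.6, 30.2 and 23.2 in BDC2.5/B6g7 without peptide and 18.9, 22.3 and 67.7 at 16 h on its probe set 95338_s_at, with 22.3, 16.7 and 50.3 in BDC2.5/NOD without peptide and 17.6, 16.1 and 26.1 at 16 h. The arrays numbered 3 of BDC2.5/B6g7 at 16 h and of BDC2.5/NOD without peptide were thus the highest. The collagenase Mmp13 was at 27.2 in array 3 of BDC2.5/B6g7 at 16 h, at 21.3 in array 2 of BDC2.5/B6g7 without peptide and at 16.2 or below in the other 14 arrays. The gelatinase Mmp9 (99957_at), which neutrophils and macrophages release, was at 82.4 in array 3 of BDC2.5/B6g7 at 16 h and at 62.5 or below elsewhere. Fn1 was highest in the arrays numbered 3 at 16 h, with 83.8 in B6g7 and 84.2 in NOD.

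Some markers of myeloid cells were high in the same arrays and others were not. Of the 16 markers, 6 were highest of their group and 7 lowest in array 3 of BDC2.5/B6g7 at 16 h, and 10 were highest and 3 lowest in array 3 of BDC2.5/NOD without peptide. The lysosomal protease cathepsin S (Ctss) was at 697 in array 3 of BDC2.5/B6g7 at 16 h, its highest value, and at 262 in array 3 of BDC2.5/NOD without peptide. It was at 256 in array 3 of BDC2.5/NOD at 16 h, in which Mmp12 (95338_s_at) read 26.1 and Mmp13 15.5. The macrophage receptor Mrc1 was at 39.5 and lysozyme (Lyz2) at 57.9 in the first of these arrays, and Lyz2 at 49.4 in the second. Cd14 (94.5), C1qb (26.7) and Apoe (505) were lowest of their group in the first, and Cd14 and C1qb lowest of all 16 arrays. The summed intensity of the 16 measured myeloid markers ranged from 1098 to 1509 in BDC2.5/B6g7 without peptide, from 1547 to 2045 at 16 h and from 1256 to 1565 in wild-type B6g7. In NOD it ranged from 811 to 1193, from 800.4 to 1068 and from 817 to 1059 in the same order. Apoe, a lipid carrier that macrophages make, lay between 266 and 971 in the B6g7 arrays and between 102 and 163 in the NOD arrays, and was lower in NOD at 16 h (-2.42 ± 0.36, limma, adjusted p = 0.0102). Apoe thus made up much of the strain difference in the summed intensity. The sums are not a count of myeloid cells. Of the 16 markers, 12 lay above 0 in the peptide response in B6g7 and 4 in NOD, and 2 in the strain difference at 16 h. The part of these cells in the metalloproteinase values was not tested.

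The second Mmp12 probe set (95339_r_at) was highest in another array. It read 89.9, 268 and 92.7 in BDC2.5/B6g7 without peptide and 107, 113 and 158 at 16 h, and 112 and 117 in wild-type B6g7. In BDC2.5/NOD it read 79.8, 53.2 and 147 without peptide and 99.5, 63.9 and 77.6 at 16 h, with 125 and 123 in wild-type NOD. At 16 h every NOD array lay below every B6g7 array (-0.65 ± 0.40, limma, adjusted p = 0.9997). The Mmp12 probe sets do not share their highest array, and neither strain difference passed the test.

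**Figure D4:**
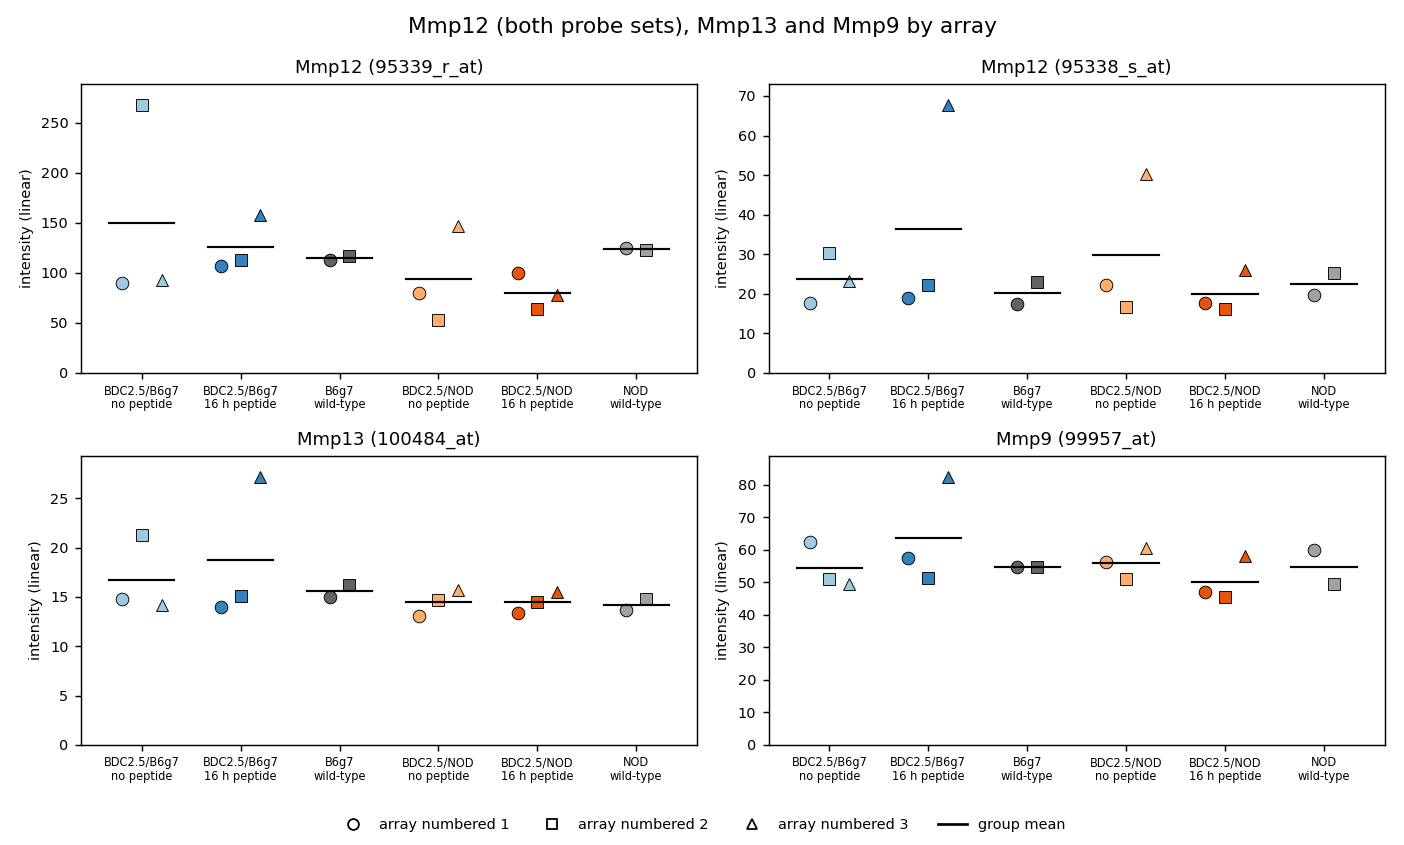
Linear intensity of Mmp12 (both probe sets), Mmp13 and Mmp9 in each of the 16 arrays by group: symbols give the array number and bars the group mean. Array 3 of BDC2.5/B6g7 at 16 h is the highest for Mmp12 (95338_s_at, 67.7), Mmp13 (27.2) and Mmp9 (82.4), and array 2 of BDC2.5/B6g7 without peptide for Mmp12 (95339_r_at, 268).

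The markers of mesenchyme, which makes type I collagen, were set beside Col1a2 (101130_at). Over the 19 measured mesenchymal markers, with 1 probe set a gene, 0 were called by limma in the strain difference without peptide, at 16 h or averaged, and at an unadjusted p under 0.05 there were 0, 2 and 2, all lower in NOD. Over all probe sets 0.266%, 0.491% and 0.958% were called, and 1.59%, 2.93% and 3.08% were lower at the unadjusted threshold. Their median was 0.03 without peptide and 0.02 at 16 h, with 13 and 11 of 19 above 0. Their summed intensity, to which the thymocyte surface protein Thy1 contributed most, ranged from 2349 to 3387 in BDC2.5/B6g7 and from 2188 to 3957 in BDC2.5/NOD without peptide. At 16 h it ranged from 1752 to 3021 and from 2095 to 3033. Without Thy1 the sum of the other 18 ranged from 749 to 984 in BDC2.5/B6g7 and from 750 to 1100 in BDC2.5/NOD without peptide, and from 792 to 1025 and from 778 to 1014 at 16 h. In array 1 of BDC2.5/NOD without peptide 17 of the 19 were highest of their group, and in array 2, where Col1a2 was highest, 1 was. The part of mesenchymal cells in the Col1a2 values was not tested.

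The genes around the matrix proteins were read from lists of 38 proteoglycans and other matrix glycoproteins, 12 enzymes of collagen processing and cross-linking, 27 matrix receptors and 18 other matrix proteases and inhibitors, with 1 probe set a gene. In the 9 comparisons of the design 0 members of these 4 lists were called in limma, and at an unadjusted p under 0.05 each list had at most 3 members in either direction. In these comparisons 0.00% to 0.491% of all probe sets were called and 0.475% to 2.93% passed the unadjusted threshold in a direction. The 3 were receptors lower in NOD at 16 h, 3 of 27 beside 2.93% of all probe sets. The collagen processing enzymes, which hydroxylate, trim and cross-link collagen chains, had 9 of 12 above 0 in the strain difference without peptide (median 0.11) and 4 of 12 at 16 h (median -0.06). The proteoglycan list had 24 of 38 and 20 of 38 above 0 in these comparisons, with medians of 0.04 and 0.01. In the averaged strain difference 1 of 27 receptors was called, beside 0.958% of all probe sets. This was Itga6, the alpha 6 chain of laminin-binding integrins, higher in BDC2.5/NOD by 1.44 ± 0.26 (limma, adjusted p = 0.0132).

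Itga6 read 31.6, 53.6 and 40.3 in BDC2.5/B6g7 without peptide and 27.2, 49.6 and 36.9 at 16 h. In BDC2.5/NOD it read 65.2, 148 and 131 without peptide and 94.6, 159 and 70.4 at 16 h, with no overlap. In wild-type cells it read 56.98 and 53.1 in B6g7 and 88.8 and 162 in NOD, again without overlap (1.13 ± 0.45, limma, adjusted p = 0.9998). Wild-type NOD arrays of Itga6 thus lay on the side of the BDC2.5/NOD arrays, whereas those of Col1a2 (101130_at) lay with the B6g7 arrays.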

How the data were processed

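Total RNA of the 16 samples was hybridised to 1-colour Affymetrix mouse arrays. The authors deposited a table of linear intensity values, 1 for each probe set in each array. The scaling, background correction and probe set summary are not given in the sources used here. For tests, the log2 of the deposited intensity was used without a pseudocount or rescaling. Of 12488 probe sets, 66 controls were left out and 12422 tested. Symbols came from the platform annotation, and probe sets with several symbols were not members.

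All 16 arrays were fitted with 6 group means in limma 3.58.1 under R 4.3.3 (contrasts.fit and trended eBayes after lmFit), with 10 residual and 3.60 prior degrees of freedom. Tests were two-sided, with Benjamini-Hochberg adjustment over all 12422 probe sets within each of 9 comparisons, and an adjusted p under 0.05 was called. Both strain-by-transgene differences and the averaged strain difference were added after values were seen. The scripts were checked on simulated data. Figures used matplotlib 3.10.9. The number of arrays limits the precision.

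The members and lists were chosen with earlier results of these data known. Named with values were, per comparison, the 2 members with the smallest unadjusted p and every member called, the 6 widest-ranging members above the median probe set, and 18 fixed matrix genes. Mmp13, Mmp9 in single arrays, and the marker genes named by array were named after their values were seen. Deviations from the group means correlated positively in BDC2.5 arrays of the same number (0.165 to 0.842 across probe sets). The labels do not state a pairing, and arrays of different numbers were not compared, so pairing by number was not tested. The wild-type arrays of the 2 strains also deviated alike by number, with a correlation of 0.81. Between wild-type and BDC2.5 arrays the correlations were 0.695 and 0.058 (B6g7) and 0.678 and -0.499 (NOD), so those comparisons were not paired. Alternatives were median centring, quantile normalization, log2(intensity + 32), no intensity trend, a filter on dim probe sets, blocks for replicate number or third-number arrays, and leaving arrays out.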

Additional observations from a re-analysis of the deposited data

Results flagged for a closer look

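Mmp12 (95339_r_at) was the member whose strain difference had opposite signs in BDC2.5 cells at 16 h and in wild-type cells, with no overlap between strains in either. The difference, NOD minus B6g7, was -0.653 at 16 h and 0.115 in wild-type cells. The change of the difference was -0.77 ± 0.64 and did not pass the test (limma, unadjusted p = 0.248, adjusted p = 0.9999). One of 87 members (1.15%) showed such opposite orders, and 0.733% of all probe sets did. Groups held 2 or 3 arrays, so no single array was tested as an outlier.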

How the results depend on the processing

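The call of Col1a2 (101130_at) in the strain difference without peptide, 1 of 87 members, became 0 under median centring, under log2(intensity + 32), with no intensity trend, without the third-number arrays and with only the groups compared, and ranged from 0 to 0 when arrays were left out singly. At 16 h it became 0 under log2(intensity + 32), with no intensity trend, without the third-number arrays and with only the groups compared, and ranged from 0 to 1 when arrays were left out singly. Of 15 alternatives, 4 and 6 kept these calls. The cause was not tested. The direction held in all of them, with log2 differences of 1.14 to 1.83 and 1.09 to 1.85. With the replicate number as a block, 2 members rather than 1 were called in the averaged strain difference, the second being Mmp14 (0.45, adjusted p = 0.0256), and the block changed no other call of a member. The transgene difference of Col1a2 in B6g7, 0.01, turned to -0.041 with the third-number arrays as a block, and ranged from -0.107 (without BDC2.5/B6g7 array 2) to 0.111 when arrays were left out singly, lying below 0 also without wild-type B6g7 array 1. Of the differences of single named members, 20 kept their direction but were no longer called, all of them Col1a2 (101130_at) without peptide or at 16 h. Leaving out 1 array moved several differences that were not called by over 1.5 times, among them Lama1 in the NOD peptide response (-0.31 to -0.11), Lamb3 in the difference of the responses (-0.44 to -0.16), Col10a1 in wild-type cells (-0.32 to -0.13) and Fbln2 in the NOD transgene difference (-1.38 to -0.67). In the transgene comparisons, which are not paired, the replicate block took the members at an unadjusted p under 0.05 from 2 to 5 in B6g7 and from 4 to 16 in NOD. The other 181 counts of members called stayed within 1.5 times their main values, and all 214 medians moved by less than the spread between arrays, although some changed sign. Mean levels were judged against another spread, the SD of the probe set within its group. By that measure 10 mean levels, all of wild-type groups, moved under median centring or quantile normalization. With 2 arrays in a wild-type group this SD can be very small. Leaving out Col4a3bp gave no value, because no probe set with that symbol was among those analysed here. Many members are dim, so differences in them may not be detectable with 2 or 3 arrays a group.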
